A study of Mus musculus with 4 samples.

Results

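The machinery that starts DNA replication and builds the replication fork was followed through 42 genes, taken by gene symbol from the 24341 genes of the deposited table, and all 42 had a row. They fall into 10 genes of origin recognition and licensing, 6 genes of the MCM helicase ring, 9 genes that activate the helicase, 7 genes of the polymerases and primase, 6 genes of the sliding clamp and its loader, and 4 genes that finish new strands or coat single-stranded DNA. The cells were of the mouse line CAD, derived from a catecholaminergic brain tumour, which leaves the cell cycle and grows processes when serum is removed. All cultures were kept in serum-free medium for 5 days. The DMSO group (2 libraries) received the solvent for 24 h, and the ACSS2i group (2 libraries) received for 24 h, at 20 µM, a quinoxaline urea that inhibits ACSS2, an enzyme making acetyl-CoA from acetate. CAD is 1 line, and the labels do not call the libraries separate cultures; a p-value here therefore reflects library spread alone, which may be technical.

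As background, a replication origin is marked by the origin recognition complex (Orc1 to Orc6), onto which Cdc6 and Cdt1 load the ring-shaped helicase Mcm2 to Mcm7 in the G1 phase, a step called licensing. At the start of S phase the kinase Cdc7 with its activator Dbf4, together with cyclin-dependent kinases and Ticrr, lets Cdc45 and the GINS complex join the ring, which then unwinds DNA for the polymerases, while the clamp PCNA, placed by replication factor C, holds the polymerases on their template. Many of these genes are targets of E2F transcription factors and are switched on as cells pass from G1 to S, whereas cells that have left the cycle lose most licensing factors and keep several origin recognition subunits.

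Values were taken as FPKM, fragments scaled to transcript length and library size, a unit in which levels can be compared between genes. The unit and the scaling are not stated in the sources used here. Summed over all genes, the values came to 590549 and 590108 under DMSO and to 558458 and 675716 with the inhibitor. Nominal depths read from the steps of the lowest values were 3210000 to 11000000 reads, with DMSO replicate 2 the shallowest, and 1 read in a transcript of 3 kb was worth 0.0303 to 0.104 FPKM. Of 15 markers of the catecholaminergic neuron-like line 14 had a mean of at least 1 FPKM, with a summed level of 8112 to 11349 FPKM in DMSO and 4211 to 5206 FPKM in ACSS2i. Most of that sum was Chgb (chromogranin B), at 6801 and 10010 FPKM under DMSO and 4453 and 2509 FPKM with the inhibitor, and in 13 of the 15 markers the groups overlapped. Th (tyrosine hydroxylase) stood at only 2.92 to 4.09 FPKM, and Dbh (dopamine beta-hydroxylase) at 0.226 to 0.624 FPKM. Markers of astrocytes, blood cells, vessels and fibroblasts, 5 of each, stood at or below 2.16 FPKM, the level of Pdgfrb in its highest library, and 2 of the fibroblast markers were at the floor of 0.01 FPKM throughout. The part of these marker differences in the results was not tested. In bulk RNA a larger share of cycling cells and more RNA per cell cannot be told apart.

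With the inhibitor, transcripts for nearly the whole replication machinery stood higher. In 37 of the 42 genes both ACSS2i libraries exceeded both DMSO libraries, against 19% of the 11486 genes tested, and 0 of the 42 had both below, against 18.3%. A positive log2 fold change was found in 40 of the 42, against 52.2% of the genes tested. The median log2 fold change over the 42, computed on log2(FPKM + 1), was 1.06, against 0.02 over all genes tested, and 22 of the 42 reached 1, which 2.26% of the genes tested did. The 5 genes whose groups overlapped were Orc2, Orc3, Orc4, Gins3 and Cdc7. Summed over the 42 genes, the level was 358 and 405 FPKM under DMSO and, with the inhibitor, 628 and 846 FPKM.

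**Figure D1:**
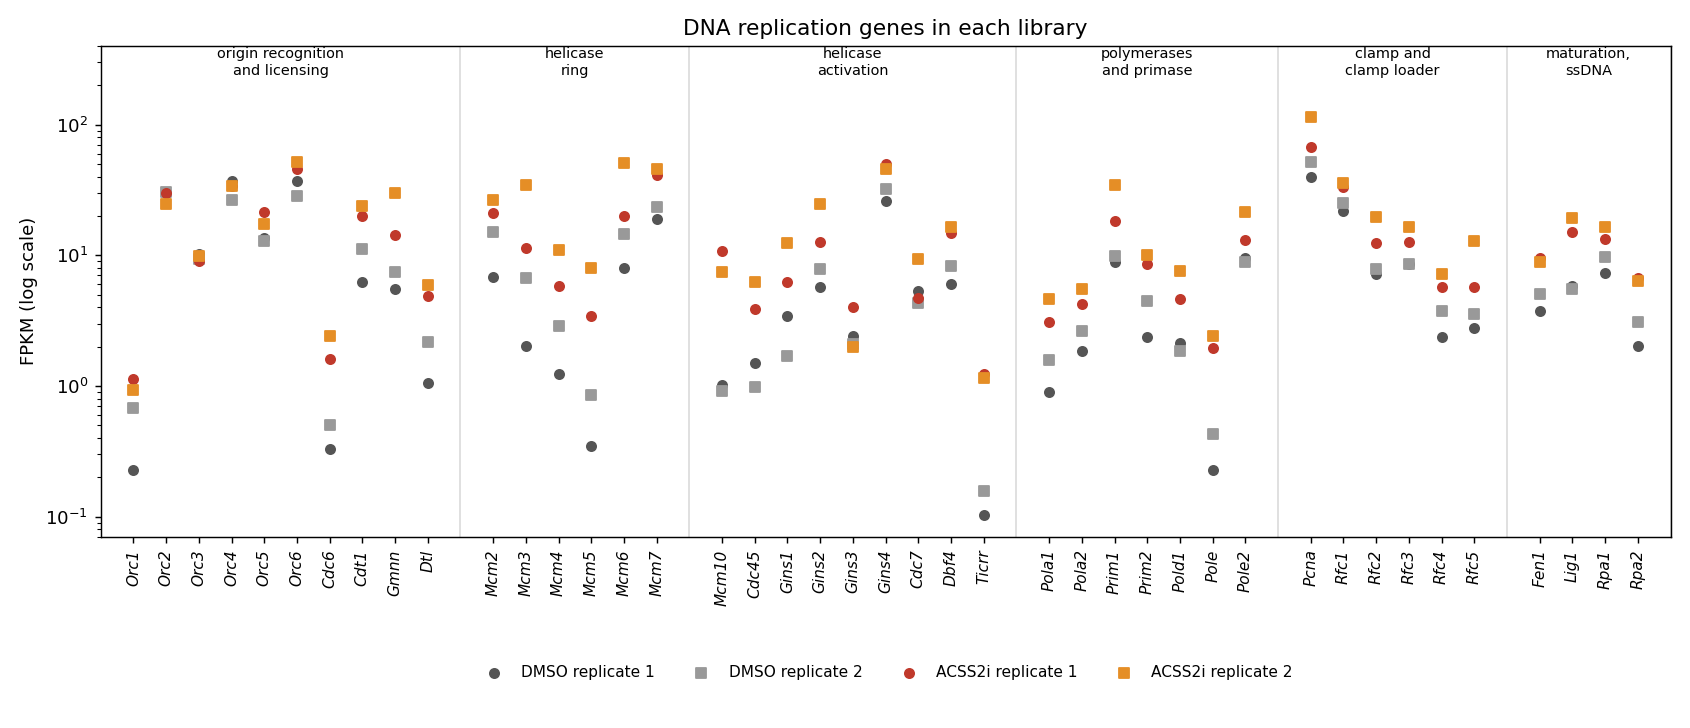
FPKM (log scale) of each of the 42 replication genes in the 4 libraries, grouped by role; each point is 1 library. The red and orange ACSS2i points lie above the grey DMSO points in 37 genes, and they mix with them in Orc2, Orc3, Orc4, Gins3 and Cdc7.

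No member passed on its own. By limma, run on the 11486 genes whose mean reached 1 FPKM, 0 of the 40 tested members had a Benjamini-Hochberg adjusted p under 0.05 (smallest 0.259, largest 0.979), where 0.0261% of all genes tested did (0.0174% higher). At an unadjusted p under 0.05, 32 of the 40 were higher and 0 lower, against 3.29% higher and 3.67% lower among all genes tested. Orc1 and Ticrr were under the filter, and Cdc6, Mcm5, Mcm10 and Pole passed it only through their level in ACSS2i. The last 4 are among the 22 genes that reached a log2 fold change of 1, a count not repeated without them. Over the 36 members with a DMSO mean of at least 1 FPKM the median log2 fold change was 1.02. Of these 36, 31 had both ACSS2i libraries above both DMSO libraries, against 17.9% of the genes under that filter. A higher level with an unadjusted limma p under 0.05 was found in 28 of them, against 2.50%. The count of 32 came down to 9 without DMSO replicate 1, was 24 when DMSO replicate 2 was left out, and 33 or 23 when the first or the second ACSS2i library was left out. The members also varied within groups: DMSO replicate 2 exceeded DMSO replicate 1 in 30 of the 42 (49.7% of the genes tested) and ACSS2i replicate 2 exceeded ACSS2i replicate 1 in 33 of the 42 (51.6%).

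**Figure D2:**
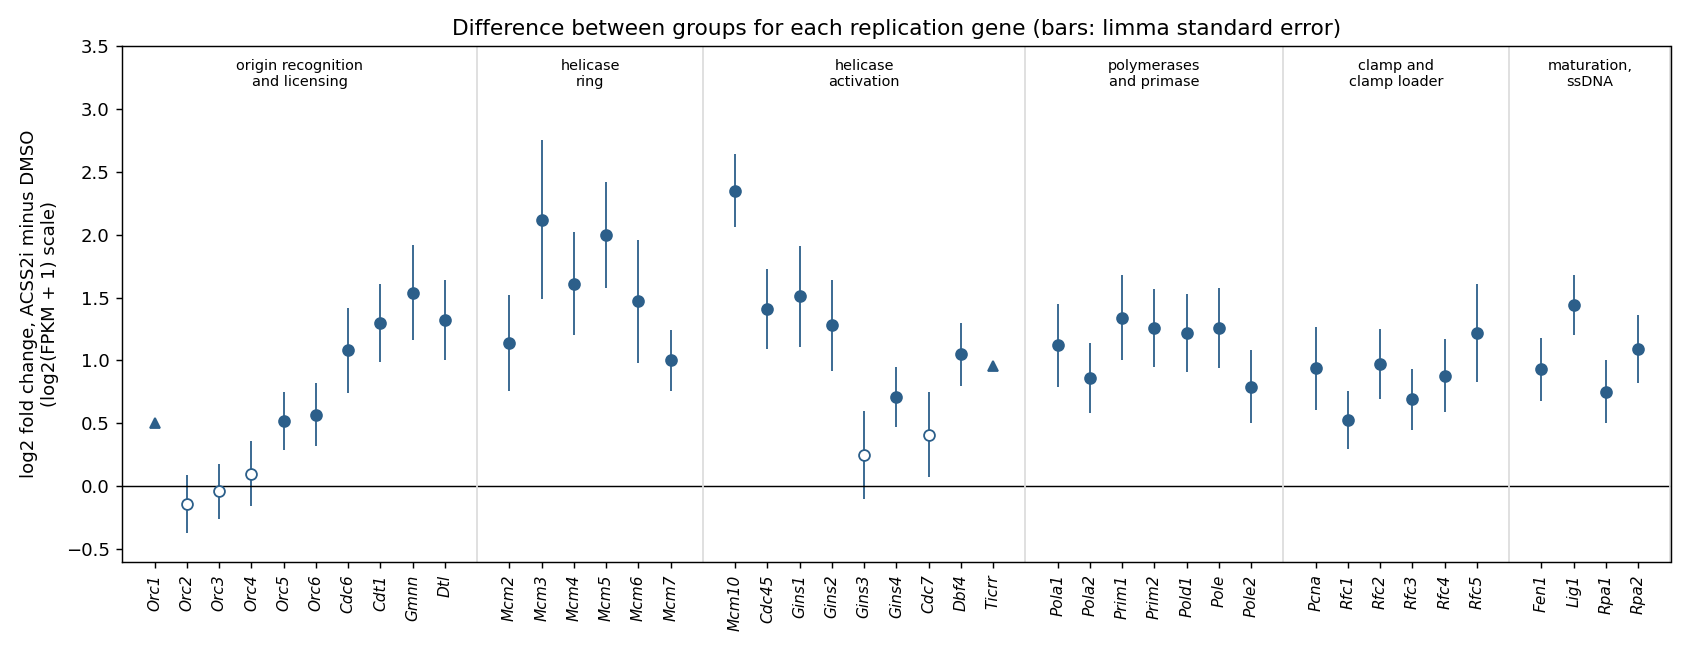
Log2 fold change (ACSS2i minus DMSO, on the log2(FPKM + 1) scale) of each replication gene by role, with limma's standard error. Open circles are the 5 genes whose groups overlapped, and triangles are Orc1 and Ticrr, which were under the filter and have no standard error. Mcm10 is highest at 2.35, and Orc2 is lowest at -0.14.

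Of the 6 subunits of the origin recognition complex, 3 overlapped between the groups and 3 did not; differences among subunits were not tested. Orc2 was at 29.9 and 30.4 FPKM under DMSO and, with the inhibitor, 30.0 and 24.7 FPKM (log2 fold change -0.14 ± 0.23, SE). Orc3 was at 10.3 and 9.31 FPKM under DMSO and, with the inhibitor, 8.96 and 9.95 FPKM (-0.04 ± 0.22). Orc4, one of the AAA+ subunits, was at 37.3 and 26.7 FPKM under DMSO and, with the inhibitor, 33.7 and 34.0 FPKM (0.10 ± 0.26). In these 3 subunits the groups overlapped, and the interval set by the standard error spans 0. Orc5 stood at 13.6 and 12.8 FPKM in DMSO against 21.5 and 17.3 FPKM in ACSS2i, and Orc6, the subunit needed to bring in the helicase, at 37.2 and 28.3 against 45.7 and 51.5 FPKM. Both were higher in both inhibitor libraries, by log2 0.52 and 0.57 (limma adjusted p = 0.751 and 0.749), and Orc6 came to 0.37 without DMSO replicate 2.

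Orc1, the subunit that is cleared and remade in each cell cycle, was the scarcest of the complex in every library. It stood at 0.226 and 0.679 FPKM under DMSO and, with the inhibitor, 1.13 and 0.923 FPKM, which corresponds to about 7.5 and 6.56 reads in DMSO and 25.3 and 26.2 reads in ACSS2i. The highest subunit exceeded Orc1 by 165 and 44.8 times under DMSO and by 40.5 and 55.8 times with the inhibitor, so that this ratio overlapped between the groups. Few reads stand behind each Orc1 value, and the gene was under the filter of the test.

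The licensing factors that act on the complex were higher in both inhibitor libraries. Cdc6, the loader ATPase, was at 0.330 and 0.503 FPKM under DMSO and, with the inhibitor, 1.60 and 2.42 FPKM, with 16.7 and 7.44 against 54.9 and 105 nominal reads. Cdt1, its partner in loading the ring, was at 6.19 and 11.1 FPKM under DMSO and, with the inhibitor, 20.1 and 24.0 FPKM (log2 fold change 1.30 ± 0.31, SE; limma adjusted p = 0.484). Levels of the loaders were thus 4.83 and 2.55 times as high by the ratio of group means. The 2 genes that restrain Cdt1 were higher as well. Gmnn, which encodes geminin, the protein that binds Cdt1 and blocks relicensing, was at 5.56 and 7.42 FPKM under DMSO and, with the inhibitor, 14.2 and 29.7 FPKM (1.54 ± 0.38). Dtl, the substrate receptor that marks chromatin-bound Cdt1 for destruction, was at 1.05 and 2.17 FPKM under DMSO and, with the inhibitor, 4.86 and 5.94 FPKM (1.32 ± 0.32). In all 4 genes the higher DMSO library stayed below the lower ACSS2i library, as it did in 19% of all genes tested. Over the 10 genes of recognition and licensing the median log2 fold change was 0.54.

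The 6 subunits of the helicase ring had the highest median of the 6 role groups, 1.54. The polymerases and primase had 1.22, helicase activation 1.05, strand maturation 1.01, the clamp and its loader 0.91 and recognition and licensing 0.54. These medians were set side by side without a test. Without ACSS2i replicate 2 the ring median was 1.10, beside 1.05 for strand maturation, 0.97 for helicase activation and 0.90 for the polymerases and primase. With any other library left out it was 1.14 to 2.07, and the highest of the groups each time. Mcm3 stood at 2.01 and 6.70 FPKM under DMSO and, with the inhibitor, 11.4 and 34.3 FPKM (log2 fold change 2.12 ± 0.63, SE; adjusted p = 0.591). Mcm5 stood at 0.346 and 0.847 FPKM under DMSO and, with the inhibitor, 3.45 and 7.95 FPKM (2.00 ± 0.42; adjusted p = 0.458), 9.56 times as high by group means. Mcm4 stood at 1.24 and 2.89 FPKM under DMSO and, with the inhibitor, 5.80 and 10.9 FPKM (1.61 ± 0.41; adjusted p = 0.491). These 3 were also the scarcest subunits of the ring in DMSO. Mcm6 was at 8 and 14.6 FPKM under DMSO and, with the inhibitor, 19.9 and 50.6 FPKM, Mcm2 at 6.81 and 15.0 against 21.2 and 26.3 FPKM, and Mcm7 at 19.1 and 23.5 against 41.1 and 45.6 FPKM. Mcm7, the most abundant of the 6 in DMSO, had the lowest log2 fold change of the ring, 1.00 ± 0.24 (adjusted p = 0.484). Single libraries weighed on some of these values: without ACSS2i replicate 2 the log2 fold change of Mcm3 was 1.36 and that of Mcm6 0.82, and without DMSO replicate 1 that of Mcm2 was 0.63.

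Because the subunits join in equal numbers, the spread of their transcript levels was followed by library. The most abundant subunit exceeded Mcm5, the scarcest in each library, by 55.2 times in DMSO replicate 1, 27.7 times in DMSO replicate 2, 11.9 times in ACSS2i replicate 1 and 6.37 times in ACSS2i replicate 2. The 2 lower ratios were those of the inhibitor libraries. The difference in this ratio was not tested. Few reads stand behind Mcm5 under DMSO, about 12.9 and 9.18 nominal reads against 86.6 and 253 with the inhibitor, and Mcm5 passed the filter only through ACSS2i. The ring genes also separated the libraries within a group: all 6 were higher in replicate 2 than in replicate 1 in both groups. Among all genes tested 49.7% were so under DMSO and 51.6% with the inhibitor. The median distance of the ring genes from the DMSO mean was -0.40 and 0.40 (log2) under DMSO and 1.10 and 2.07 with the inhibitor. The inhibitor libraries still lay above both DMSO libraries for each of the 6, against 19% of all genes tested.

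**Figure D3:**
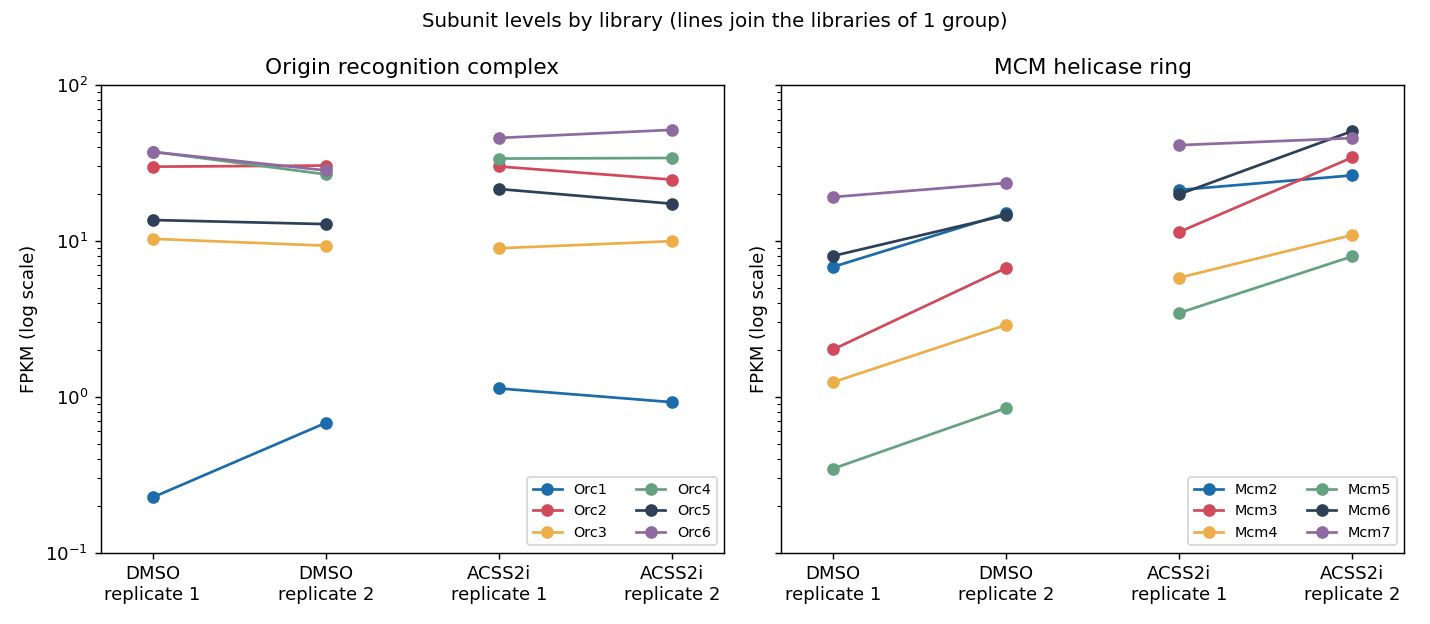
FPKM (log scale) of the 6 origin recognition subunits (left) and the 6 helicase ring subunits (right) in each library; lines join the 2 libraries of a group. The points of Orc2, Orc3 and Orc4 overlap between the groups, while the ring subunits are higher in ACSS2i, and the highest exceeds the lowest by 55.2 times in DMSO replicate 1 and by 6.37 times in ACSS2i replicate 2.

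Among the genes that turn the loaded ring into a moving helicase, the scaffold factor Mcm10 had the highest log2 fold change of the 42 genes on the log2(FPKM + 1) scale with all 4 libraries. By the ratio of group means Mcm5 (9.56) stood above Mcm10 (9.51), and Mcm3 had the higher log2 fold change without ACSS2i replicate 1 (2.87 against 2.11) or without DMSO replicate 2 (2.80 against 2.31). Mcm10 was at 1.01 and 0.910 FPKM under DMSO and, with the inhibitor, 10.8 and 7.46 FPKM (2.35 ± 0.29, SE; adjusted p = 0.259), with about 54.2 and 14.2 against 391 and 342 nominal reads. Mcm10 lies on chromosome 2 from 4989714 to 5012791 on the minus strand (GRCm38), and the DMSO libraries differed little from each other there. Ticrr, also called treslin, which brings Cdc45 to the ring, was at 0.102 and 0.156 FPKM under DMSO and, with the inhibitor, 1.24 and 1.14 FPKM. It had the lowest DMSO level of the 42 genes, about 8.08 and 3.59 nominal reads against 66.5 and 77.3, and was 9.24 times as high in ACSS2i by group means, a ratio that rests on few reads in DMSO. Cdc45 itself was at 1.51 and 0.983 FPKM under DMSO and, with the inhibitor, 3.88 and 6.21 FPKM (1.41 ± 0.32; adjusted p = 0.484).

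The 4 GINS subunits, which bind the ring together with Cdc45, were uneven. Gins1 was at 3.42 and 1.70 FPKM under DMSO and, with the inhibitor, 6.26 and 12.4 FPKM (1.51 ± 0.40), and Gins2 was at 5.72 and 7.85 against 12.7 and 24.6 FPKM (1.28 ± 0.36). Gins4 was at 26.1 and 32.0 against 49.9 and 45.9 FPKM (0.71 ± 0.24), the most abundant of the complex in every library. Gins3 was the exception, at 2.41 and 2.10 FPKM under DMSO and, with the inhibitor, 4.05 and 1.97 FPKM, with 1 inhibitor library above and the other below both DMSO libraries (0.25 ± 0.35). The kinase pair split in the same manner: Dbf4 was at 5.99 and 8.28 FPKM under DMSO and, with the inhibitor, 14.8 and 16.5 FPKM (1.05 ± 0.25), whereas its catalytic partner Cdc7 was at 5.28 and 4.33 against 4.73 and 9.31 FPKM (0.41 ± 0.34). Without ACSS2i replicate 2 the log2 fold change of Gins2 was 0.83. That of Gins3 was -0.13 without ACSS2i replicate 1 and 0.64 without ACSS2i replicate 2. For Cdc7 these values were 0.83 and -0.01. Differences among the GINS subunits and between Dbf4 and Cdc7 were not tested. For Cdc7 the groups overlapped, and ACSS2i replicate 1 lay between the DMSO libraries.

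All 7 polymerase and primase genes had both inhibitor libraries above both DMSO libraries, against 19% of all genes tested. Prim1, the catalytic primase subunit that lays down RNA primers, was at 8.85 and 9.84 FPKM under DMSO and, with the inhibitor, 18.2 and 34.5 FPKM (log2 fold change 1.34 ± 0.34, SE; adjusted p = 0.491). Prim2, the large primase subunit, was at 2.38 and 4.46 against 8.56 and 10.1 FPKM (1.26 ± 0.31; adjusted p = 0.485). The other two chains of the same complex stood lower in level: the catalytic chain Pola1 was at 0.894 and 1.59 against 3.08 and 4.66 FPKM, and Pola2 at 1.86 and 2.61 against 4.24 and 5.47 FPKM. Pola1 was the scarcest and Prim1 the most abundant of these 4 in every library, and their ratio, 9.89 and 6.20 in DMSO and 5.92 and 7.39 in ACSS2i, overlapped between groups.

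The catalytic subunits of both main fork polymerases were among the higher genes. Pold1, of the lagging strand polymerase delta, was at 2.12 and 1.86 FPKM under DMSO and, with the inhibitor, 4.60 and 7.59 FPKM (1.22 ± 0.31; adjusted p = 0.491). Pole, of the leading strand polymerase epsilon, was at 0.229 and 0.432 against 1.95 and 2.42 FPKM (1.26 ± 0.32; adjusted p = 0.494), with about 18 and 9.93 against 104 and 163 nominal reads. Its partner Pole2 was at 9.48 and 8.95 against 13 and 21.3 FPKM, the lowest log2 fold change of the group at 0.79 ± 0.29, or 0.46 without ACSS2i replicate 2. Pole thus stood far below Pole2 in level in every library.

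The clamp and its loader had a median log2 fold change of 0.91. In every library the most abundant of the 42 genes was Pcna, at 39.8 and 51.9 FPKM under DMSO and, with the inhibitor, 67.3 and 115 FPKM (log2 fold change 0.94 ± 0.33, SE; adjusted p = 0.652). Reads of Pcna may be shared with its processed pseudogenes Pcna-ps1 and Pcna-ps2, which were not analysed here. Of the loader subunits, Rfc2 was at 7.14 and 7.88 FPKM under DMSO and, with the inhibitor, 12.5 and 19.7 FPKM (0.97 ± 0.28), Rfc5 at 2.76 and 3.57 against 5.71 and 12.9 FPKM (1.22 ± 0.39), and Rfc4 at 2.36 and 3.77 against 5.70 and 7.15 FPKM (0.88 ± 0.29). Rfc3 was at 8.57 and 8.63 against 12.7 and 16.5 FPKM (0.69 ± 0.24). Rfc1, the large subunit and the most abundant of the 5 in each library, was at 22.0 and 25.3 against 33.2 and 36.0 FPKM and had the lowest log2 fold change of the loader, 0.53 ± 0.23 (adjusted p = 0.733). Without ACSS2i replicate 2 the value of Pcna was 0.55 and that of Rfc5 0.69. All 6 genes were higher in both inhibitor libraries, against 19% of all genes tested. All 6 were also higher in replicate 2 than in replicate 1 of both groups (49.7% of all genes tested in DMSO, 51.6% in ACSS2i).

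The genes that finish the lagging strand were higher too. Lig1, the ligase that seals Okazaki fragments, had closely placed libraries, at 5.80 and 5.54 FPKM under DMSO and, with the inhibitor, 15.0 and 19.4 FPKM (log2 fold change 1.44 ± 0.24, SE; unadjusted p = 0.001; adjusted p = 0.320). Fen1, the nuclease that removes RNA flaps, was at 3.76 and 5.01 against 9.52 and 8.91 FPKM (0.93 ± 0.25). Rpa2 and Rpa1, subunits of the protein that coats single-stranded DNA, were at 2.01 and 3.11 against 6.64 and 6.34 FPKM (1.09 ± 0.27) and at 7.30 and 9.68 against 13.3 and 16.5 FPKM (0.75 ± 0.25). All 4 genes had an unadjusted limma p under 0.05, which 3.29% of all genes tested had with a higher level. Here ACSS2i replicate 2 was higher than ACSS2i replicate 1 in only 2 of the 4.

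Promoters were examined because 37 of the genes stood higher together and E2F factors are textbook regulators of this set. RefSeq windows on GRCm38.p6, from 250 bases before to 50 bases after a gene start, were at hand for 34 of the 42 genes (42 windows); those of Mcm4, Gins1, Gins2, Gins4, Gmnn, Pole, Prim2 and Rfc2 were not used here. An E2F word, any of TTTCCCGC, TTTCGCGC, TTTGCCGC and TTTGGCGC on either strand, was found in 15 of the 34 genes (35.7% of their 42 windows), against 4.02% of the 11164 windows of tested genes and 2.26% of all 32851 windows. Of the accessory fork and origin genes described below, 9 of the 32 with a window held a word (27% of their 37 windows). Words that overlap each other were counted separately, and 0 of the 21 words shared bases with a GC box. The CCAAT box (CCAAT) was in 54.8% of the members' windows and 38.2% of those of tested genes, the GC box (GGGCGG) in 71.4% and 64%, and the cell cycle homology region (TTTGAA) in 16.7% and 11.2%. Among all 32851 windows the shares were 37.4%, 35.7% and 17.9%, so the last exceeded that of the members. These are matches of letters, not measured binding sites.

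The windows below are examples of genes with and without an E2F word, with the words in capitals. Mcm3 (chr1:20820263-20820562, minus strand), Mcm5 (chr8:75109259-75109558, plus strand), Mcm6 (chr1:128359656-128359955, minus strand) and the first window of Mcm7 (chr5:138171834-138172133, minus strand) are the 4 ring genes, of 5 with a window, that hold a word. Mcm10 (chr2:5012742-5013041, minus strand), with a log2 fold change of 2.35, holds none. Its last bases match the start of TTTGGCGC, but the next base lies outside the window. Whether the word is completed there was not seen. Orc3 (chr4:34614893-34615192, minus strand), whose groups overlapped, holds 1. Orc2, with the lowest log2 fold change of the members (-0.14), holds none in either of its windows, which are not printed.
Mcm3: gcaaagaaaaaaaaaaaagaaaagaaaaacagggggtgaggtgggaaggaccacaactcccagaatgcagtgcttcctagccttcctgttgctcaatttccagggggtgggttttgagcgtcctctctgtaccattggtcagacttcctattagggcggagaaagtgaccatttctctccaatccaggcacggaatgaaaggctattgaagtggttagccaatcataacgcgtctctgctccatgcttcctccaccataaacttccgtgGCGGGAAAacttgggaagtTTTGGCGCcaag
Mcm5: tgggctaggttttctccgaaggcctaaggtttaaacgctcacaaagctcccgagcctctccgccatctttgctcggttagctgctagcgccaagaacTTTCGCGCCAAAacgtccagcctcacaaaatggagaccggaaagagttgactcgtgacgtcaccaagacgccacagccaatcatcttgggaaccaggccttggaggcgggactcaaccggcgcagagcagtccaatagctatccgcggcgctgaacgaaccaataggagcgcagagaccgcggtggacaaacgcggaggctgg
Mcm6: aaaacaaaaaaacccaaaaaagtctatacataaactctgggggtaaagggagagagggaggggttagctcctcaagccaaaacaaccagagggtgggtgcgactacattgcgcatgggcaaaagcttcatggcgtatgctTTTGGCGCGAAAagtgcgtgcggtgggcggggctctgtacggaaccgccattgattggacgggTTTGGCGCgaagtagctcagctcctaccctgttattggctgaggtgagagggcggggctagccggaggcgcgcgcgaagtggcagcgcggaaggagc
Mcm7: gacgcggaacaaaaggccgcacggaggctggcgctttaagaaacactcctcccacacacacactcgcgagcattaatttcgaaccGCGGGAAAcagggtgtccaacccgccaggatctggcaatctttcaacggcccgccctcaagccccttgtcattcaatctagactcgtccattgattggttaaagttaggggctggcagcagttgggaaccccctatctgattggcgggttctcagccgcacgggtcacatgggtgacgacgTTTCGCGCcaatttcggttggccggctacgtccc
Mcm10: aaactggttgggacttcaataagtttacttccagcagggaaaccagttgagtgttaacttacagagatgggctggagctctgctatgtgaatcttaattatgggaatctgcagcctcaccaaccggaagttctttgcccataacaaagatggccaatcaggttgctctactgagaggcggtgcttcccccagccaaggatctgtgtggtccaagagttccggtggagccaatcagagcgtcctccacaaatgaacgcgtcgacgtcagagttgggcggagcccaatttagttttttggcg
Orc3: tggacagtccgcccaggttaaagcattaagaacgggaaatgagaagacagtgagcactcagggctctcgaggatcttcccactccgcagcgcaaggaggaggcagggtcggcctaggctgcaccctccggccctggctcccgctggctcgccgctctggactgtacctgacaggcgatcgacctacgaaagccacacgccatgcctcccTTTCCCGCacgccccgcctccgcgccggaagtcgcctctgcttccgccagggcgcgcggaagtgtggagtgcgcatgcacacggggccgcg

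Genes with and without a word overlapped in their log2 fold changes. The 15 genes with a word had a median log2 fold change of 1.12 (from -0.04 to 2.12), and 13 of them had both inhibitor libraries above both DMSO libraries. The 19 genes without one had a median of 0.93 (from -0.14 to 2.35), and 16 of them had the groups apart in that direction. Over all genes tested 19% did. By role a word was found in 5 of 9 recognition and licensing genes, 4 of 5 ring genes, 1 of 6 activation genes, 3 of 5 polymerase genes, 1 of 5 clamp and loader genes and 1 of 4 maturation genes. No match says only that these letters are not in the window.

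Several replication genes start near another gene that points the other way, so that both are read from nearby stretches of DNA. In GENCODE M21 (GRCm38), 13 of the 42 genes had a protein-coding neighbour on the opposite strand whose start lay within 1000 bases, and all 13 neighbours were tested. The median log2 fold change was 1.00 for the 13 replication genes and 0.14 for their neighbours, against 0.02 over all genes tested. The replication gene had the higher value in 12 of the 13 couples. A log2 fold change of 1 was reached by 2.26% of the genes tested, so most genes set beside one at that median would stand lower. Mcm4 starts 466 bases from Prkdc, which encodes the catalytic subunit of DNA-dependent protein kinase and was at 2.75 and 2.88 FPKM under DMSO and, with the inhibitor, 2.94 and 3.35 FPKM (log2 fold change 0.12, against 1.61 for Mcm4). Dtl starts 92 bases from Ints7, a subunit of the Integrator complex, at 15.7 and 14.4 against 17.6 and 17.2 FPKM (0.20, against 1.32 for Dtl). Gins1 lies 659 bases from the lipase gene Abhd12, at 29.3 and 28.1 against 22.8 and 25.3 FPKM (-0.25, against 1.51 for Gins1). In these 3 couples the neighbour differed by less than the replication gene. Prkdc and Ints7 were higher in both inhibitor libraries, and Abhd12 was lower in both.

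In some couples the neighbour was higher too: Orc6 and Vps35 had log2 fold changes of 0.57 and 0.40, Mcm7 and Ap4m1 1.00 and 0.32, and Orc1 and Prpf38a 0.50 and 0.32, with overlapping groups for Prpf38a. Lower neighbour values were found for Dbf4 beside Slc25a40 (log2 fold changes of 1.05 and 0.01) and for Cdc45 and Ufd1l, whose annotated transcripts overlap at their starts (1.41 and 0.14). Of the 13 neighbours, 4 had both inhibitor libraries above both DMSO libraries, 3 had both below and 6 overlapped. Among all genes tested 19% had both above and 18.3% both below. The shares of the neighbours were the larger in both directions, from few genes. By limma 0 of the 13 neighbours passed an adjusted p of 0.05, and 0 had an unadjusted p under 0.05. Orc3 and Rars2, a mitochondrial arginyl-tRNA synthetase with its start 13 bases away, were the couple in which the neighbour was the higher, at -0.04 and 0.11. The difference between a gene and its neighbour was described and not tested.

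**Figure D4:**
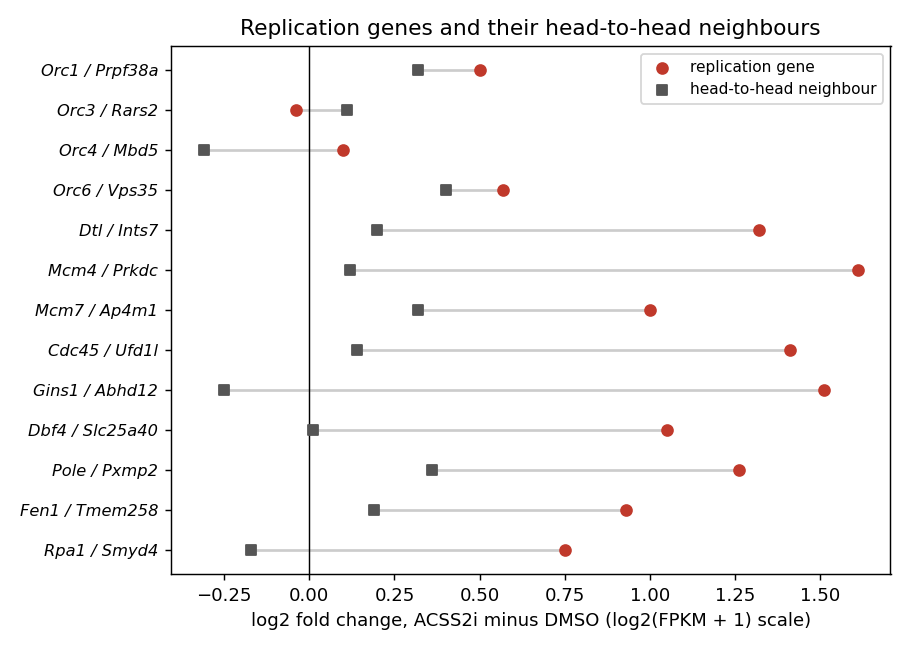
Log2 fold change (ACSS2i minus DMSO, log2(FPKM + 1) scale) of the 13 replication genes with a head-to-head neighbour (red circles) and of that neighbour (grey squares), 1 couple per line. The replication gene lies to the right in 12 couples, and the neighbours lie between -0.31 and 0.40.

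Overlap of transcripts limits some of these values, since the sources used here do not say whether fragments were assigned by strand. Exons on the opposite strand cover 67.3% of the exon bases of Gins2 (Gse1), 78.8% of those of Fen1 (the antisense gene Gm10143), 29.8% of those of Orc2 (Nif3l1) and 15.1% of those of Rfc2 (Lat2). The shares are 12.7% for Rfc4 (Eif4a2), 10.8% for Orc1 (Gm12743) and 10.7% for Rfc5 (Wsb2). They are smaller for some genes and their head-to-head neighbours: 7.25% for Mcm7 (Ap4m1), 6.93% for Orc6 (Vps35), 5.96% for Cdc45 (Ufd1, named Ufd1l above) and 5.37% for Fen1 (Tmem258). Pole2 shares 8.5% of its exon bases with Gm49384 on the same strand, where assignment by strand would not separate the genes. The levels of these genes are uncertain, by an amount that was not measured.

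Another list held 40 accessory genes of forks and origins that are not members, among them small polymerase subunits, fork protection factors, alternative clamp loaders and replication-coupled chromatin assembly factors. All 40 were tested, 36 had a positive log2 fold change (52.2% of all genes tested did) and 4 a negative one, and the median was 0.49. The inhibitor libraries were both above the DMSO libraries in 27 of the 40 and both below in 0, against 19% and 18.3% of all genes tested. By limma 0 of the 40 passed an adjusted p of 0.05 (0.0261% of all genes tested did), and 11 were higher and 0 lower at an unadjusted p under 0.05, against 3.29% and 3.67%. From this list Dscc1, Clspn, Exo1 and Mms22l passed the filter only through their level in ACSS2i. All 4 are among the 27, and Dscc1, Clspn and Exo1 are among the 11. Neither count was repeated without them. Over the 36 accessory genes with a DMSO mean of at least 1 FPKM the median log2 fold change was 0.47.

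Dscc1, a subunit of the alternative clamp loader that acts in sister chromatid cohesion, stood apart most, at 0.216 and 0.247 FPKM under DMSO and, with the inhibitor, 3.62 and 4.53 FPKM (log2 fold change 2.04 ± 0.30, SE; unadjusted p = 0.00053; adjusted p = 0.319). Asf1b, a histone chaperone of dividing cells, was at 1.25 and 0.781 against 3.71 and 5.32 FPKM (1.45 ± 0.31), and Mcm8, a helicase of recombination related to the ring subunits, at 2.86 and 3.25 against 9.53 and 6.66 FPKM (1.15 ± 0.27). Exo1, a nuclease of DNA ends and mismatches, had 1.19 ± 0.34, Clspn (claspin, which links fork stalling to the checkpoint kinase) 1.11 ± 0.33, and Pold2, the second subunit of polymerase delta, 0.82 ± 0.24. The lowest values of the list belonged to Donson (-0.22 ± 0.29), Chtf8 (-0.13 ± 0.31) and Rif1 (-0.10 ± 0.25), in which the groups overlapped. Dscc1 and Chtf8, which sit in the same clamp loader, thus stood at the top and near the bottom of the list. Chtf18, of the same loader, lay between them (0.44 ± 0.40), with overlapping groups. Dscc1 was scarce under DMSO, and the sign of Chtf8 turned without DMSO replicate 2. The contrast was not tested.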

How the data were processed

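Build mm10 is listed in the submitters' processing notes, as are the tools Cuffdiff, Cufflinks (2.2.1), STAR (2.3.0) and bcl2fastq (02.14.01.07). Annotation, scaling and the adjustment of values are not given in the sources used here. Per the labels and header no unit is named, and the deposited values of the 4 libraries were taken as FPKM, the output of Cufflinks. The lowest deposited FPKM value was 0.01. Of 24341 genes, 1 held a failure mark and was left out. Relative depths (1, 0.292, 0.675 and 0.857) were the most common ratios of low values between libraries, and 42 genes with 1 transcript set the nominal reads, which are approximate. The values are not counts, so no count test was run.

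Tests used limma 3.58.1 (R 4.3.3) with a mean-variance trend on log2(FPKM + 1), two-sided, on the 11486 genes whose mean reached 1 FPKM, adjusted by Benjamini and Hochberg; the script was tested on simulated data. Fold changes on this scale understate the change of low genes, so ratios of mean FPKM stand beside some. The members and lists were chosen with earlier results of these data known. By the rule for named genes, values in every library are given for members with the smallest p of each role group, members whose groups overlapped and members under the filter; most other members are given in full too. Of the accessory genes, the rule takes the 6 with the smallest p and the 3 with the lowest log2 fold change. Chtf18 and Mms22l were named outside that rule. Promoters came from RefSeq and positions from GENCODE M21; the comparisons with neighbours and by E2F word, and the filter on the DMSO mean, were chosen after the values were seen. The oligodendrocyte marker list is not reported here.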

Additional observations from a re-analysis of the deposited data

How the results depend on the processing

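Of the 42 genes, 0 passed an adjusted p of 0.05 under any setting tried: pseudocounts of 0.1 and 5, no filter, a mean of at least 5 FPKM, quantile normalization, median ratio scaling, short RNA genes left out, no variance trend, the replicate block, a DMSO mean of at least 1 FPKM (chosen after seeing the data), and each library left out. The smallest adjusted p of a member ranged from 0.113 (replicate block) to 0.742 (no filter). Under the 3 other scalings 0 of the 40 tested members changed sign. For the members, a pseudocount of 5 gave a median of 0.65 (log2), and leaving out a library gave 0.88 to 1.28. The accessory median was 0.62 with a pseudocount of 0.1, 0.34 with a pseudocount of 5, and 0.42 to 0.62 with a library left out. Over all genes 3 were called, against 6 with a pseudocount of 0.1, 0 with a pseudocount of 5, 0 without a filter, 0 without short RNA genes, 1 with the DMSO filter, 8 with the replicate block and 13 to 26 with a library left out; the cause was not tested. The median of all genes was -0.06 without short RNA genes. With 1 library left out the sign turned for Orc3 (-0.11 to 0.02; 0.02 without DMSO replicate 1 and also without ACSS2i replicate 1), Orc4 (-0.14 without DMSO replicate 2, up to 0.33), Gins3 (-0.13 without ACSS2i replicate 1, up to 0.64), Cdc7 (-0.01 without ACSS2i replicate 2, up to 0.83), Donson (0.12 without ACSS2i replicate 1, down to -0.56), Chtf8 (0.24 without DMSO replicate 2, down to -0.49) and Rif1 (0.11 without ACSS2i replicate 2, down to -0.31). A lone library was assumed to vary like the group with 2. Whether the replicate numbers pair the libraries is not settled here. The correlation across genes of same-numbered deviations was -0.017. Among the 42 members, however, replicate 2 exceeded replicate 1 in 30 under DMSO and in 33 with the inhibitor. The replicate block changed no member's call, but 0 were called without it, so that count could not fall. The nominal 3210000 reads of DMSO replicate 2 limit the genes under 1 FPKM there.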
